A study of Mus musculus with 4 samples.

Results

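The genes described here are 10 genes that write, copy, remove or protect DNA methylation, and all 10 were listed among the 23420 gene symbols counted in cervical motor neurons (MNs). They were taken by symbol: the DNA methyltransferases *Dnmt1*, *Dnmt3a*, *Dnmt3b* and *Dnmt3l*, the DNMT1 partner *Uhrf1*, the dioxygenases *Tet1*, *Tet2* and *Tet3*, and the imprint protection factors *Zfp57* and *Trim28*. The RNA-seq compared MNs of 2 genotypes, wild type (WT) and *Patz1* -/- (*Patz1* KO), with 2 libraries each. Both were made from E14, a mouse embryonic stem cell (ESC) line kept in LIF and 2i medium, through embryoid bodies patterned with all-trans-retinoic acid and smoothened agonist, so all 4 libraries share the line and the treatment. The *Patz1* KO cells came from CRISPR-edited single clones, the labels do not say which clone stands behind which library, and genotype and clone cannot be told apart. Replicates were independent differentiations. The sample titles name ESCs, while the source and cell type labels name MNs, and the marker genes given below bear on this. No sort of the cells is described, and in RNA from a whole culture fewer cells of a type and less RNA per cell cannot be told apart.

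In mammals, methyl groups sit mainly on cytosines of CpG sites. DNMT3A and DNMT3B place new methyl groups, with DNMT3L as a partner without catalytic activity, and DNMT1 copies the pattern to the new strand after replication, guided by UHRF1, which recognises hemimethylated CpG sites. The TET enzymes oxidise the methyl group and start its removal. At imprinted control regions, where only 1 parental copy carries methylation, the KRAB zinc finger protein ZFP57 binds the methylated copy and recruits TRIM28, a scaffold for histone methyltransferases. In ESCs, *Dnmt3b*, *Dnmt3l*, *Tet1* and *Zfp57* are known as highly expressed genes, while *Dnmt3a* and *Tet3* are known in neurons.

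In *Patz1* KO MNs, 5 of the 10 genes were lower (*Dnmt1*, *Uhrf1*, *Dnmt3a*, *Dnmt3b* and *Tet1*) and 2 were higher (*Tet3* and *Zfp57*). *Tet2* and *Trim28* were tested and did not pass an adjusted p of 0.05, and *Dnmt3l* had too few counts to be tested. Calls rest on the quasi-likelihood test of edgeR, adjusted by the Benjamini-Hochberg method over all 14269 genes that passed its filter on low counts, and fold changes are *Patz1* KO over WT on the log2 scale. Of all genes tested, 47.9% were called in this way, 24.1% as higher and 23.8% as lower, so a large part of the transcriptome moved. The 7 calls among 9 tested genes, and the counts called in each list below, have to be read against that. In each of the 9 genes, both *Patz1* KO libraries lay on 1 side of both WT libraries, which was the case in 74.2% of all genes tested, in 37.0% with *Patz1* KO above and in 37.2% with *Patz1* KO below. The median log2 fold change was -0.26 over the 9 genes and -0.0014 over all genes tested. The differences were moderate. When a change beyond 0.5 on the log2 scale was required, *Uhrf1* alone among the 10 was called (adjusted p = 0.0175, glmTreat in edgeR). The same requirement left 2314 of all 14269 genes tested as called, so few calls were not particular to the genes described.

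**Figure D1:**
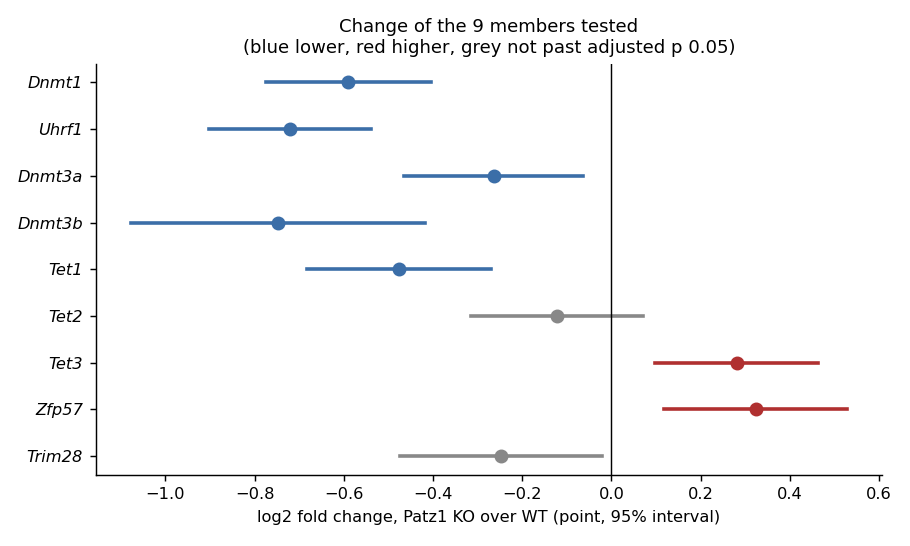
Log2 fold change of *Patz1* KO over WT (x axis) for the 9 genes tested (rows), as the estimate (point) with its 95% interval (line) from edgeR's fit on 2 libraries per genotype. *Dnmt1*, *Uhrf1*, *Dnmt3b* and *Tet1* lie between -0.75 and -0.48, *Tet3* and *Zfp57* lie at 0.28 and 0.32, and the grey genes *Tet2* and *Trim28* did not pass the adjusted threshold.

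The WT libraries held 14769104 and 15728158 counts in total, and the *Patz1* KO libraries 23881522 and 17402342. *Patz1* itself was counted 1363 and 1499 times in WT and 1154 and 714 times in *Patz1* KO. Transcripts of the targeted gene were thus reduced but still present (log2 fold change -1.04). By western blot, the paper reports loss of the PATZ1 protein in the *Patz1* KO ESC lines, and RNA counts do not measure protein. All 8 markers of MNs were expressed in every library, and 7 of them were higher in *Patz1* KO. Replicates varied by 7.71% (common biological coefficient of variation). The second *Patz1* KO library held a larger share of 3 abundant non-coding RNAs (*Rn45s*, *Rpph1* and *Rmrp*), 9.65% of counts against 6.33% to 6.81% in the other libraries.

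Levels of different genes were set side by side as CPM (counts scaled to a common library size with TMM) per kb of annotated exon. In WT MNs, *Trim28* had the highest level, 139 ± 3.77 CPM per kb (SD, n = 2), above 97.9% of the genes tested. *Uhrf1* (42.4 ± 0.816) and *Dnmt1* (40.7 ± 0.281 CPM per kb, SD, n = 2 each) followed, above 92.3% and 91.9% of the genes tested. *Zfp57* at 12.7, *Dnmt3a* at 10.7 and *Tet3* at 8.97 CPM per kb formed a middle group. *Tet2* (4.01), *Tet1* (3.76) and *Dnmt3b* (2.78 CPM per kb) were low, with *Dnmt3b* above 35.0% of the genes tested, and *Dnmt3l* was near 0. The order of some neighbours rested on the length used. With the longest transcript in place of all annotated exons, *Dnmt1* (51.2) stood above *Uhrf1* (50.4 CPM per kb), and *Zfp57* and *Dnmt3a* could hardly be told apart (18.5 and 18.4 CPM per kb).

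**Figure D2:**
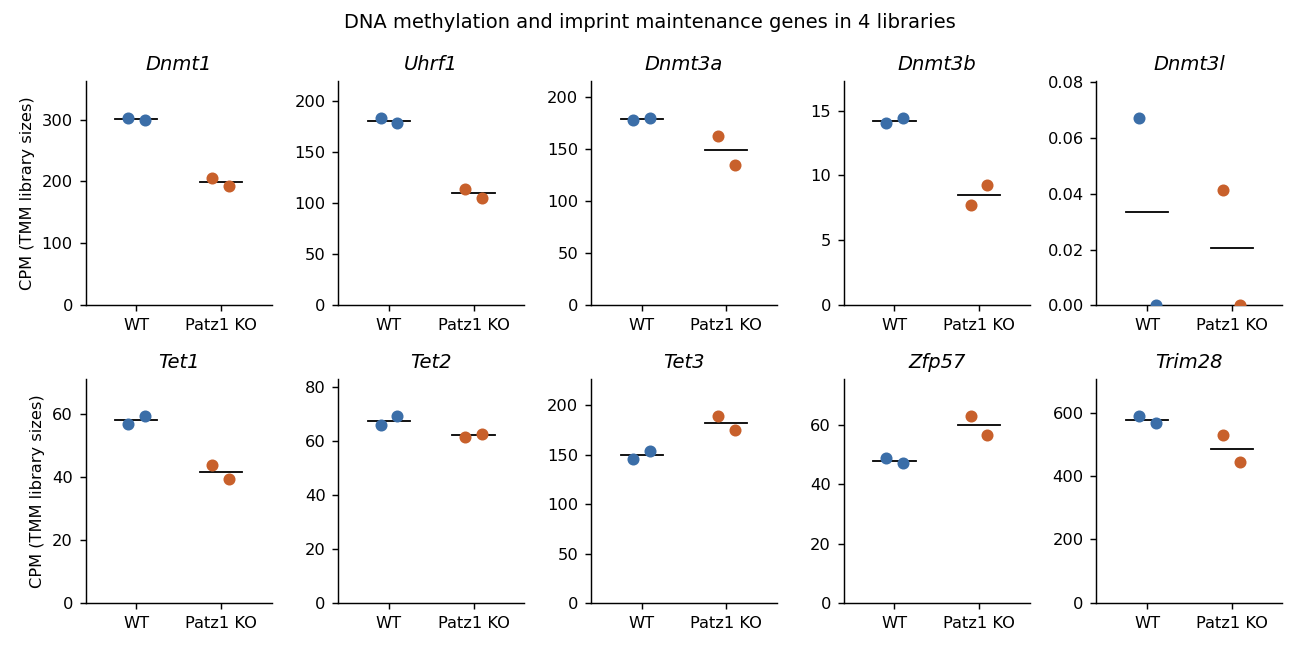
CPM (y axis, from 0, each gene on its own scale) of the 10 genes in the 2 WT and the 2 *Patz1* KO libraries (points) with the group mean (bar). The groups do not overlap in any panel but that of *Dnmt3l*, whose points stand for 1, 0, 1 and 0 counts.

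For the copying of methylation patterns, the pair *Dnmt1* and *Uhrf1* fell together. *Dnmt1*, the maintenance methyltransferase (chromosome 9 of GRCm38, 20907209 to 20959888, minus strand), had 302 and 299 CPM in the WT libraries and 206 and 193 CPM in the *Patz1* KO libraries. Its log2 fold change was -0.59 (standard error, SE, 0.088, adjusted p = 2.84e-05 by edgeR), which left 66.4% of the WT level. *Uhrf1*, the reader of hemimethylated DNA (chromosome 17, 56303321 to 56323486, plus strand), went from 183 and 178 CPM to 114 and 105 CPM. Its log2 fold change of -0.72 (SE 0.086, adjusted p = 2.48e-06 by edgeR) left 60.7% of the WT level. Both *Patz1* KO libraries were well below both WT libraries in either gene, and the replicates of a genotype were close to each other. Both calls held whichever of the 4 libraries was left out, with log2 fold changes from -0.63 to -0.54 for *Dnmt1* and from -0.77 to -0.66 for *Uhrf1*. The ratio of *Dnmt1* to *Uhrf1*, in CPM per kb, was 0.951 and 0.968 in WT and 1.04 and 1.06 in *Patz1* KO. The estimated fall was slightly larger for *Uhrf1*, but the 95% intervals overlapped (-0.78 to -0.40 for *Dnmt1*, -0.90 to -0.54 for *Uhrf1*). The ratios of the genotypes did not overlap, and the levels of 74.2% of all genes tested did not either. No test of the difference between the 2 genes was run.

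As these 2 genes moved together, the 250 bases before their RefSeq start sites (GRCm38.p6) are given, for *Uhrf1* at chr17:56303087-56303336 on the plus strand and for *Dnmt1* at chr9:20959889-20960138 on the minus strand, 5′ to 3′. Capitals mark a match, on either strand, to the motif TTCCCGC, to its variant TTGGCGC, to the further variant TTCGCGC (all cores of sites known for E2F factors of the cell cycle) or to GGGAGGG, a G-rich run of the kind that MAZ and PATZ1 are known to bind. The motifs were chosen for this description and do not overlap each other here.
Uhrf1: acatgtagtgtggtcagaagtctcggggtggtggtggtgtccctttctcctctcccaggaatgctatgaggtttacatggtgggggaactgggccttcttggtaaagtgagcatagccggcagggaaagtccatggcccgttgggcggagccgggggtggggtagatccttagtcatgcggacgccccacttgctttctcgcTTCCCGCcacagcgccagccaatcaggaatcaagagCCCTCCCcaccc
Dnmt1: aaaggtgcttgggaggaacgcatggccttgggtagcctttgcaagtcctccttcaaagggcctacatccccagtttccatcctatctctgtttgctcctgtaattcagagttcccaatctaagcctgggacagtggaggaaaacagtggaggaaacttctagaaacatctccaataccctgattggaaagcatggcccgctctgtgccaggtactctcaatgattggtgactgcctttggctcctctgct
The *Uhrf1* stretch held TTCCCGC starting 48 bases before the start site and, on the other strand, GGGAGGG starting 12 bases before it. The *Dnmt1* stretch held none of these motifs. The whole 300-base *Dnmt1* window, which reaches 50 bases past the start site, had 2 CpG sites, against a median of 7 over the windows of 27025 genes. One of the 3 E2F-like motifs was present in 8.23% of the windows of these 27025 genes and GGGAGGG in 21.3%. RefSeq gives 3 windows for *Dnmt1* and 2 for *Uhrf1*, and only the window nearest the GENCODE start was read. Other start sites of both genes, and which start these cells use, are therefore not covered. For *Dnmt1*, the lack of motifs and the few CpG sites hold for the window at its outermost annotated start. They do not describe its other starts, 1 of which may be the one in use here. Among the 10 genes described, 2 held an E2F-like motif (*Uhrf1* and *Trim28*) and 4 held GGGAGGG (*Dnmt3a*, *Dnmt3b*, *Uhrf1* and *Tet3*). A match is a description of letters, and nothing was measured on binding.

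Known partners of this step were listed as well. Of 8 maintenance partners, 7 were tested, 6 were called lower in *Patz1* KO and 0 higher, with a median log2 fold change of -0.64. *Pclaf* (listed as 2810417H13Rik), the PCNA-associated factor that helps to bring DNMT1 to replicating DNA, had 220 ± 6.55 CPM in WT and 97.4 ± 8.27 CPM in *Patz1* KO (SD, n = 2 each) and fell by 1.18 (log2). *Hells*, a chromatin remodeller needed for methylation of repeats, fell by 0.97 and *Pcna*, the replication clamp, by 0.79 on the log2 scale. *Cdca7*, *Lig1* and *Usp7*, which removes ubiquitin from DNMT1 and UHRF1, were the other 3 that fell. *Uhrf2*, the paralogue of *Uhrf1*, had 82.5 and 85.5 CPM in WT and 91.0 and 88.1 CPM in *Patz1* KO and did not pass (log2 fold change 0.093, 95% interval -0.092 to 0.28). *Dppa3*, a germ cell factor that keeps UHRF1 away from chromatin, had no more than 1 count in any library.

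Genes of S phase moved in the same direction. The list of DNA replication held 20 genes, all of which could be tested, and *Patz1* KO had 19 called as lower and 0 as higher, with a median log2 fold change of -0.94, and their summed level went from 2168 to 2224 CPM in WT to 1227 to 1266 CPM in *Patz1* KO. *Mcm4*, *Mcm7* and *Rrm2* had log2 fold changes of -1.27, -1.10 and -1.10, and the exons of *Mcm7* overlap those of *Ap4m1* and *Cops6*. *Mcm2* was the gene that did not pass (log2 fold change 0.12). The log2 fold change of *Uhrf1* lay above that of 16 of the 20 genes, and so did that of *Dnmt1*. *Dnmt3b* lay above 15, *Tet1* above 18 and *Dnmt3a*, *Tet2* and *Trim28* above 19 of them. How far the number of dividing cells took part in the falls of *Dnmt1* and *Uhrf1* was not tested.

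For new methylation, *Dnmt3a* and *Dnmt3b* both fell, by 0.26 and 0.75 on the log2 scale (the difference between the genes was not tested), and *Dnmt3l* was not detected above the limit of counting. *Dnmt3a* (chromosome 12, 3806007 to 3914443, plus strand), the de novo enzyme that is known for its part in neurons, had 178 and 179 CPM in WT and 163 and 135 CPM in *Patz1* KO. The 2 WT libraries were almost equal, while those of *Patz1* KO were 0.27 apart on the log2 scale, about as far as the genotypes. Its log2 fold change was -0.26 (SE 0.095, adjusted p = 0.03 by edgeR), and the call was among the weakest: it was lost with DESeq2's Wald test (adjusted p = 0.0818), without the second *Patz1* KO library (log2 fold change -0.13, adjusted p = 0.162 in edgeR) and without the first or the second WT library (adjusted p = 0.147 and 0.186 in edgeR). Without the first *Patz1* KO library the log2 fold change was -0.40. Its exons overlap 133 bases of the antisense gene *Dnmt3aos*, and the strand setting of the counting is not given in the sources used here.

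*Dnmt3b* (chromosome 2, 153649450 to 153687730, plus strand), the de novo enzyme of the early embryo, was covered by 209 and 229 reads in WT and by 188 and 156 reads in *Patz1* KO, which is 14.0 and 14.4 CPM against 7.75 and 9.30 CPM. The groups were clearly apart, and its log2 fold change of -0.75 (SE 0.16, adjusted p = 0.00073 by edgeR) was the lowest of the 9 genes, next to that of *Uhrf1*. It was called whichever library was left out, with log2 fold changes from -0.87 to -0.61. The annotation also lists *Dnmt3c*, a tandem copy of *Dnmt3b* known from germ cells, and how reads that match both were counted is not given in the sources used here. *Dnmt3l* (chromosome 10, 78041947 to 78063622, plus strand), whose exons overlap those of *Aire*, was counted once or not at all (1 and 0 in WT, 1 and 0 in *Patz1* KO). All 4 values are under a limit of 3 counts, which corresponds to 0.126 to 0.203 CPM and covers counting error only, so a small difference between the genotypes was beyond detection here.

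The low value of *Dnmt3l* went with few counts of ESC genes. Among 10 markers of pluripotent stem cells, *Utf1* and *Fgf4* had 0 counts in all 4 libraries, *Pou5f1* had 7 in each WT library and 4 and 3 in those of *Patz1* KO, and 5 were tested, of which 2 were lower (*Klf4* and *Dppa5a*, by 1.78 and 1.71 on the log2 scale) and 0 were higher, and 1 was called without the first or without the second WT library. *Nanog* had the highest mean level of this list, 3.49 CPM over the 4 libraries. The 3 tested markers that did not pass included 1 with a log2 fold change of 0.46. The summed level of the 10 markers was 10.8 to 14.6 CPM in WT and 7.34 to 8.998 CPM in *Patz1* KO. Their part in the fall of *Dnmt3b* was not tested. The *Dnmt3b* start site lies in a CpG-rich window with 30 CpG sites, more than in 88.4% of the windows, and the 250 bases before it (chr2:153649199-153649448, plus strand) show both GGGAGGG matches in capitals, the second on the other strand.
Dnmt3b: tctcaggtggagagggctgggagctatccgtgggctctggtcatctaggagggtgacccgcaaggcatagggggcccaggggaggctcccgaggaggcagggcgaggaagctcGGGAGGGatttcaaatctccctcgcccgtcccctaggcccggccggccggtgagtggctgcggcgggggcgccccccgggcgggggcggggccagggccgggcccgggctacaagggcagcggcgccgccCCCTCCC

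Seen as parts of a whole, the 4 methyltransferase genes summed to 54.4 and 54.1 CPM per kb in WT and 39.2 and 36.1 CPM per kb in *Patz1* KO. *Dnmt1* made up 75.3% and 74.9% of this sum in WT and 71.2% and 72.6% in *Patz1* KO. The share of *Dnmt3a* was 19.7% and 19.9% in WT and 24.9% and 22.4% in *Patz1* KO, so it took a larger part of a smaller sum. *Dnmt3b* held 5.05% and 5.21% in WT and 3.87% and 5.04% in *Patz1* KO. With 2 libraries per genotype no exact permutation test of a share can pass 0.05, and none was run.

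**Figure D3:**
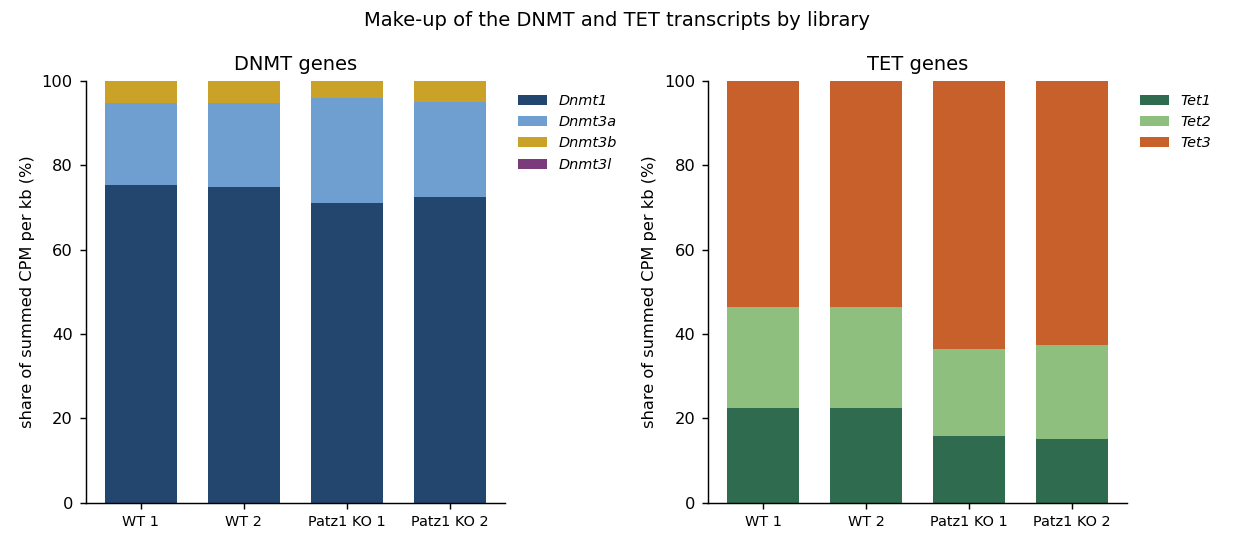
Share (y axis, percent) of each gene in the summed CPM per kb of the DNMT genes (left) and of the TET genes (right) in each of the 4 libraries (bars). *Dnmt1* holds 71.2% to 75.3% of the DNMT sum in all 4 libraries, and *Tet3* goes from 53.6% and 53.7% of the TET sum in WT to 63.6% and 62.5% in *Patz1* KO. *Dnmt3l*, at 0.041% or less, is too thin to be seen.

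The 3 TET genes went different ways. *Tet1* (chromosome 10, 62804570 to 62908996, minus strand), the TET enzyme best known from ESCs, had 56.9 and 59.3 CPM in WT and 43.9 and 39.4 CPM in *Patz1* KO. This was a log2 fold change of -0.48 (SE 0.098, adjusted p = 0.000635 by edgeR), and it was called whichever library was left out. *Tet2* (chromosome 3, 133463679 to 133545139, minus strand), the family member without a CXXC domain of its own, had 66.0 and 69.3 CPM in WT and 61.5 and 62.8 CPM in *Patz1* KO. The groups did not overlap but were near each other, and the log2 fold change of -0.12 did not pass (95% interval -0.32 to 0.070, adjusted p = 0.283 by edgeR). The exons of *Tet2* overlap 43 bases of the antisense gene *Gm42567*. *Tet3* (chromosome 6, 83362373 to 83459084, minus strand), the TET gene with the highest level here, had 146 and 154 CPM in WT and 189 and 175 CPM in *Patz1* KO. This was a log2 fold change of 0.28 (SE 0.087, adjusted p = 0.0127 by edgeR). The call of *Tet3* was lost without the first (adjusted p = 0.202) or the second WT library (adjusted p = 0.0893, both by edgeR), with values of 0.25 and 0.32.

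The sum of the 3 TET genes was 16.3 and 17.1 CPM per kb in WT and 17.8 and 16.7 CPM per kb in *Patz1* KO, and the genotypes overlapped. Within this sum, *Tet1* went from 22.5% and 22.4% in WT to 15.9% and 15.2% in *Patz1* KO. *Tet2* held 23.9% and 24.0% in WT and 20.4% and 22.2% in *Patz1* KO. The remaining share was that of *Tet3*. The ratio of *Tet3* to *Tet1* was 2.38 and 2.40 in WT and 3.99 and 4.11 in *Patz1* KO. The spread between replicates in this ratio was thus small next to the distance between the genotypes.

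Of 18 other genes of active demethylation and base repair, 17 were tested, 4 were higher and 3 were lower, with a median log2 fold change of 0.039. Over all genes tested, 24.1% were called higher and 23.8% lower. *Cxxc5*, a CXXC zinc finger protein that binds unmethylated CpG sites, rose from 30.5 ± 4.25 to 72.9 ± 1.09 CPM (SD, n = 2 each), by a log2 fold change of 1.26. *Smug1*, a uracil glycosylase, and *Polb*, the repair polymerase, rose by 0.85 and 0.61 on the log2 scale. *Gadd45a* was the fourth that rose, and *Apex1*, *Xrcc1* and *Idh2* fell. *Idh1*, which makes the 2-oxoglutarate that TET enzymes use, and *Parp1* did not pass, with log2 fold changes of 0.039 (95% interval -0.17 to 0.25) and -0.073 (95% interval -0.28 to 0.13). The falls were the less stable side of this list. Without the second WT library 4 genes were called higher and 0 lower, 3 and 1 without the first WT library and with DESeq2's Wald test, and 4 and 1 with no filter on low counts.

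Of the imprint protection factors, *Zfp57* was higher in *Patz1* KO MNs, while its partner *Trim28* was not called. *Zfp57* (chromosome 17, 37001163 to 37010635, plus strand) had 48.7 and 47.1 CPM in WT and 63.0 and 56.7 CPM in *Patz1* KO. This was a log2 fold change of 0.32 (SE 0.097, adjusted p = 0.0108 by edgeR), and the call was lost without the first (adjusted p = 0.0663) or the second WT library (adjusted p = 0.12, both by edgeR), with values of 0.35 and 0.30. *Trim28* (chromosome 7, 12999114 to 13031035, plus strand) had 589 and 567 CPM in WT and 530 and 443 CPM in *Patz1* KO. Both *Patz1* KO libraries were lower than WT, but they were 0.26 apart on the log2 scale, which is as much as the log2 fold change of -0.25 (SE 0.11, adjusted p = 0.0664 by edgeR). Without the first *Patz1* KO library, *Trim28* was called (log2 fold change -0.38, adjusted p = 2.55e-05 by edgeR), and without the second it had a log2 fold change of -0.12. The ratio of *Trim28* to *Zfp57*, in CPM per kb, was 11.01 and 10.95 in WT and 7.67 and 7.11 in the *Patz1* KO libraries.

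The 250 bases before the RefSeq start of *Zfp57* (chr17:37000913-37001162, plus strand) and of *Trim28* (chr7:13023902-13024151, plus strand) are shown because the pair did not move together. Capitals mark the same motifs as above.
Zfp57: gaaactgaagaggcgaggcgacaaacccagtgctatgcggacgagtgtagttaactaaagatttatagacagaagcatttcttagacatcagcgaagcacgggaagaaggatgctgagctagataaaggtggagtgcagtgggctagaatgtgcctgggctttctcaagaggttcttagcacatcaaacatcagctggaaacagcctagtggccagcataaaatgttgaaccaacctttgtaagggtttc
Trim28: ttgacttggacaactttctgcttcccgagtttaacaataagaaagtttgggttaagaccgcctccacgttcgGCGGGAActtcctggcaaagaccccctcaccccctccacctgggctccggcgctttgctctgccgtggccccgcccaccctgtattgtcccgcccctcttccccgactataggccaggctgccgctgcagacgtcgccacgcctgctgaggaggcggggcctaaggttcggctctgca
The *Zfp57* stretch held none of the motifs, and its 300-base window had 6 CpG sites and 47.0% G and C. The *Trim28* stretch held TTCCCGC on the other strand, starting 178 bases before the start site, and its window had 23 CpG sites and 64.0% G and C. Over the windows of all 10 genes, the number of CpG sites went from 2 in *Dnmt1* to 57 in *Tet2*. The RefSeq starts used for *Tet1*, *Tet3* and *Trim28* lie 21672, 17406 and 25038 bases inside the start annotated by GENCODE, so other start sites of these genes are not covered. *Dnmt1*, *Dnmt3a*, *Dnmt3l* and *Zfp57* have 3 RefSeq windows each and *Uhrf1* has 2, and the windows not used are not covered either.

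Among 22 partners of KRAB zinc finger proteins and TRIM28, all tested, 10 were lower and 3 were higher in *Patz1* KO MNs, with a median log2 fold change of -0.20. Across all genes tested, 23.8% were called lower and 24.1% higher. With a change beyond 0.5 on the log2 scale required, 1 of the 22 was called higher and 0 lower. *Suv39h1*, a histone H3K9 methyltransferase, and *Ctcf*, the insulator protein that binds unmethylated imprinted control regions, fell by 0.48 and 0.46 on the log2 scale, and the annotation places genes on the opposite strand over exons of both (*Gm14820* for *Suv39h1*, *Agrp* and *Gm5914* for *Ctcf*). *Zfp445*, the other zinc finger protein known to protect imprints, had 199 and 217 CPM in WT and 165 and 160 CPM in *Patz1* KO (log2 fold change -0.36, adjusted p = 0.00259 by edgeR); it is named because of this known role, after its values had been seen. *Trim24*, a relative of *Trim28*, rose from 109 ± 6.57 to 192 ± 10.1 CPM (SD, n = 2 each), or by 0.82 in log2. *Smarcad1* and *Ehmt2* did not pass, with log2 fold changes of 0.20 (95% interval 0.016 to 0.39) and -0.032 (95% interval -0.23 to 0.16). Without the first or the second WT library, 8 (1 higher, 7 lower) and 7 (2 higher, 5 lower) of the 22 were called.

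Of 7 readers of methylated CpG sites, all tested, 1 was higher and 2 were lower, and the median log2 fold change was -0.12. The shares over all genes tested were 24.1% called higher and 23.8% called lower. *Zbtb4*, a zinc finger protein that binds methylated DNA, was counted 149 and 144 times in WT and 1012 and 726 times in *Patz1* KO, a rise from 9.52 ± 0.669 to 42.5 ± 1.09 CPM (SD, n = 2 each) with a log2 fold change of 2.16. This was larger in size than the change of any of the 9 genes tested above. *Mbd2* and *Zbtb33* (Kaiso) fell by 0.33 and 0.26 on the log2 scale, and the exons of *Zbtb33* overlap those of *Tmem255a*. With DESeq2's Wald test, and without the second WT library, 1 of the 7 was called. *Mbd3* did not pass (log2 fold change -0.065, 95% interval -0.26 to 0.13).

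The supply of methyl groups was covered by 11 genes of the folate and methionine cycles, all tested, of which 8 were called lower and 0 higher in *Patz1* KO, with a median log2 fold change of -0.51. *Tyms*, which makes thymidylate for DNA synthesis, fell by 1.78 and the cytosolic serine enzyme *Shmt1* by 1.53 on the log2 scale, and the exons of *Shmt1* overlap those of *Smcr8*. *Mat2a*, which makes the methyl donor S-adenosylmethionine, had 187 and 191 CPM in WT and 208 and 196 CPM in *Patz1* KO and did not pass (log2 fold change 0.094, 95% interval -0.087 to 0.27). *Mat2b*, its regulatory subunit, did not pass either (log2 fold change -0.22, 95% interval -0.41 to -0.025).

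**Figure D4:**
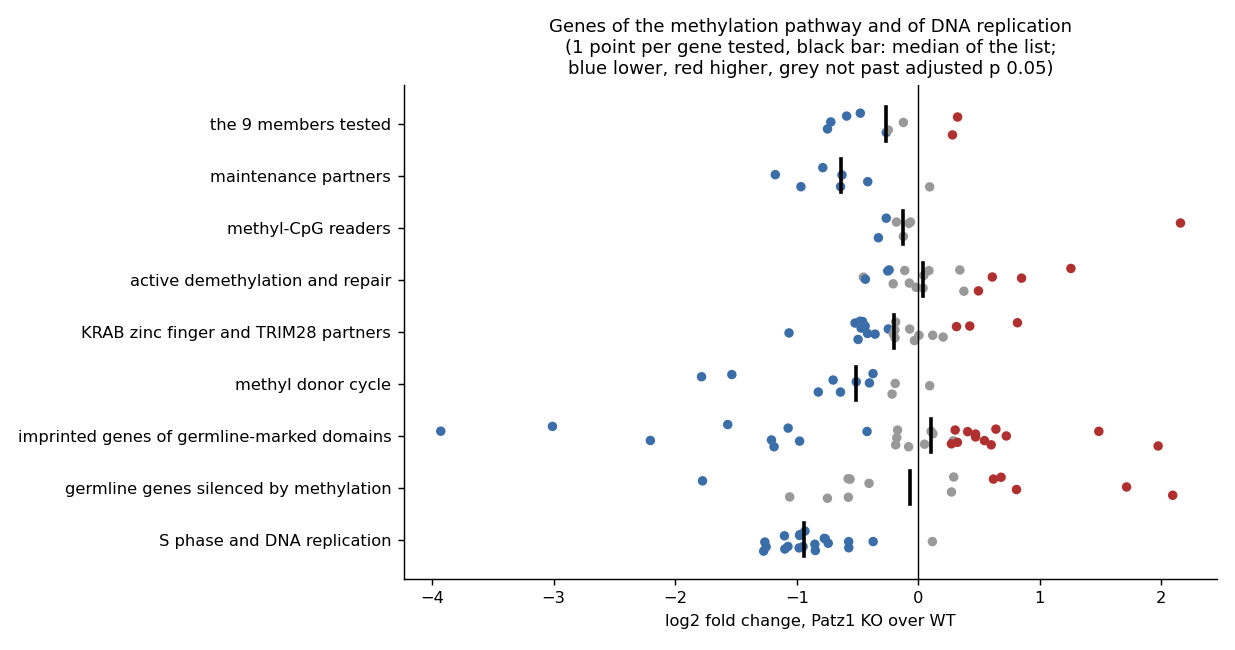
Log2 fold change of *Patz1* KO over WT (x axis) of each gene tested in the 10 genes described, in 7 lists of the pathway and in the DNA replication list (rows). Each point is a gene and the black bar is the median of its list, which is -0.64 for the maintenance partners, -0.94 for DNA replication, 0.11 for imprinted and -0.066 for germline genes.

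Genes whose silencing is known to rest on this machinery went both ways. Of 31 imprinted genes in domains with a germline methylation mark, 29 were tested, 12 were higher and 9 were lower, and the median log2 fold change was 0.11 with a range from -3.93 (*Peg13*) to 1.97 (*Dlk1*). *Grb10* and *Plagl1* had log2 fold changes of -3.01 and -2.20, and *H19* and *Nnat* did not pass (log2 fold changes of 0.11 and 0.051). The counts do not separate the parental alleles. For this list and the next, the shares over all genes tested were 24.1% called higher and 23.8% called lower. Of 17 germline genes known to be silenced by promoter methylation, 14 were tested, 5 were higher and 1 was lower, with a median of -0.066, and 3 were called higher and 0 lower without the second WT library. These genes stayed at low levels, with a summed level of 33.6 to 42.1 CPM in WT and 49.1 to 49.7 CPM in *Patz1* KO. *Stk31* was counted 9 and 16 times in WT against 91 and 53 times in *Patz1* KO (log2 fold change 2.09), *Rpl10l* had 11 and 44 against 153 and 89 counts (log2 fold change 1.71), and *Dazl* had 24 and 33 against 14 and 8 counts (log2 fold change -1.78). Among those that did not pass, *Sycp1* was counted 46 and 107 times in WT against 79 and 72 times in *Patz1* KO, and *Mael* had 47 and 69 against 114 and 73. DNA methylation itself was not measured in these libraries.

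The cultures of the 2 genotypes also differed in markers of other cell types. Of 8 MN markers, 7 were higher in *Patz1* KO and 0 were lower, and their summed level was 599 to 643 CPM in WT and 939 to 1031 CPM in *Patz1* KO. *Prph*, *Chat* and *Mnx1* rose by log2 fold changes of 1.33, 0.99 and 0.88. Of 8 neural progenitor markers, 2 were higher and 3 were lower, with a summed level of 1652 to 1740 CPM in WT and 1419 to 1457 CPM in *Patz1* KO. Among these, *Sox1* rose by 1.03 and *Hes5* and *Pax6* fell by 0.99 and 1.05 on the log2 scale.

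Of 10 primitive endoderm markers, 8 were lower and 0 were higher, and the summed level was 825 to 921 CPM in WT and 202 to 225 CPM in *Patz1* KO. A large part of these sums was *Col4a1*, the highest of the list with a mean of 287 CPM over the 4 libraries. The sums thus do not stand for each marker. *Col4a1*, *Dab2* and *Foxa2* fell by 3.23, 3.34 and 2.35 on the log2 scale. When each library had to hold 10 counts or more of a gene, which leaves out genes that are low in *Patz1* KO, 4 were called lower. Of 10 neural crest and mesenchyme markers, 9 were tested, 7 were lower and 2 were higher (*Foxd3* and *Sox10*), and the summed level was 187 to 210 CPM in WT and 36.2 to 42.1 CPM in *Patz1* KO. *Col3a1*, *Pdgfra* and *Col1a1* fell by 3.24, 3.96 and 2.18 on the log2 scale. Only 1 gene of this list was called higher without the first or the second WT library, without the first *Patz1* KO library, with DESeq2's Wald test, the replicate block, library size alone, thinning, the minimum fold, or at least 10 counts in every library. The part of these cell types in the values of the 10 genes was not tested.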

How the data were processed

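RNA-seq of 2 WT and 2 *Patz1* KO cervical MN cultures was analysed. The authors deposited raw read counts per gene symbol, 1 file per library. Reads were mapped to mm10 with Bowtie 2 per the methods, and the submitters' processing notes also name TopHat2 2.1.1, Bowtie2 2.3.1 and featureCounts 1.6.2. Libraries were made with a stranded TruSeq RiboZero Gold kit per the labels. The annotation and strand setting used for counting are not given in the sources used here. Total counts went from 14769104 to 23881522 per library. With 2 libraries per group, small changes are the least certain.

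Counts were tested with edgeR 4.0.16 (limma 3.58.1, R 4.3.3): TMM, filterByExpr with a minimum count of 10, quasi-likelihood F test, 2-sided, Benjamini-Hochberg over all genes, threshold 0.05. Standard errors were taken as the size of the log2 fold change over the root of F, and 95% intervals use the t distribution of the fit and are not adjusted. The alternatives were other scalings and filters, DESeq2 1.42.0 (Wald test, the study's method), a replicate block, thinning, a minimum fold and leaving out each library. On counts drawn by simulation for 14017 genes of this comparison, 65, 67 and 64 genes were changed by 1.5, 2 and 4 fold. Of these, edgeR recovered 69.2%, 82.1% and 100%, and 13 of 177 calls were false. In the real data 47.9% of genes were called, so these rates need not hold there.

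Gene positions and exon lengths are from GENCODE M21 on GRCm38, the assembly of mm10, and promoter windows from RefSeq on GRCm38.p6, where all 10 genes matched. For each gene the window nearest the GENCODE start was used. Of the 23420 symbols, 23055 matched GENCODE. Plots were drawn with matplotlib 3.10.9 in Python 3.11.15. The 10 genes, the 7 pathway and 6 marker lists and the naming rule were chosen with earlier results of these data known. The rule named all 10 genes and *Patz1*, the 3 genes with the smallest adjusted p under 0.05 in each list and, in pathway lists, the 2 most expressed genes that did not pass. *Mcm2*, *Dlk1*, *Tdg* and other genes named to complete a count were chosen after their values were seen. Some genes that the rule named are not reported here. No value column was left unused.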

Additional observations from a re-analysis of the deposited data

How the results depend on the processing

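All 9 genes tested kept their direction in the 13 alternatives. *Uhrf1* was called in all of them, and *Dnmt1*, *Dnmt3b* and *Tet1* in all but the minimum fold. The number of the 10 genes called was 7, and it was 6 with DESeq2's Wald test, which lost *Dnmt3a*, 1 when a log2 change beyond 0.5 was required, and 4 to 8 with 1 library left out at a time, 4 being the count without either WT library. In those fits the group with a single library is assumed to vary like the other. Over all genes the count of 6837 became 2314 with the minimum fold, 5116 with DESeq2's Wald test, and 4521 to 7816 without each library (4521 without the second WT library). For the 7 pathway lists together, 64 calls became 23 with the minimum fold and 46 to 66 without each library, and for the 6 marker lists 50 became 42 and 46 to 54. With lengths of the longest transcript, the difference in the share of *Tet1*, *Patz1* KO minus WT, was -5.08 in place of -6.86 percentage points and that of *Tet3* was 8.67 in place of 9.47. The titles number the replicates alike in both genotypes. Deviations of libraries with the same number from their group means had a correlation of 0.030 over genes. With only 2 libraries per genotype, this cannot tell whether libraries with the same number shared a batch. With the replicate number as a block, 7363 genes, 7 of the 10 genes, 64 pathway and 50 marker genes were called. Depth limits *Dnmt3l*, which had too few counts for the test. The cause of the other shifts was not tested.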

Other observations

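*Tdg*, the glycosylase that removes oxidised methylcytosine, was counted 6 times and 1 time in WT against 4 and 10 times in *Patz1* KO and was too low to be tested. The annotation lists a pseudogene *Tdg-ps*, and how reads that match both were counted is not given in the sources used here, so its value is uncertain.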
